A study of Homo sapiens with 24 samples.

Results

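Divergent transcripts are noncoding RNAs that start at the promoter of a coding gene and run away from it on the opposite strand, and their symbols are the coding gene's symbol followed by -DT. All genes whose symbol ended in -DT and that had at least 10 reads summed over the 24 libraries were taken, which gave 437 DT genes of 589 such symbols among the 60605 genes counted. Of the 152 DT symbols left out, 59 had no read at all. At the threshold, 9 members such as HSPA5-DT and GAR1-DT had exactly 10 reads, and 10 symbols such as APP-DT and ATF6-DT had 9 reads and stayed out.

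The reads came from poly(A)-selected RNA of SBC-3 cells, a line grown from a human small cell lung carcinoma, whose genotype the labels give as wild type throughout. Cells were reverse transfected with 10 nM of small interfering RNA (siRNA) or antisense oligonucleotide (ASO) and harvested after 72 h, and every group held 3 libraries. The siRNA arm held siSFPQ-2 and siSFPQ-3 against SFPQ, siNONO-3 and siNONO-4 against NONO, and the control siRNA siCtrl. The ASO arm held ASO-NEAT1-1047 and ASO-NEAT1-1473 against NEAT1, and the control ASO-Ctrl. The study asks how these paraspeckle components act on the transcription and stability of nuclear RNA precursors. All data come from 1 cell line, and whether replicates were separate cultures is not given in the sources used here, and the p-values therefore cover the spread among these libraries, which may be technical.

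Most active mammalian promoters, above all those rich in CpG, recruit RNA polymerase II in both directions. Upstream RNA is usually cut and terminated early at polyadenylation signals and removed by the nuclear exosome, so it stays scarce beside the mRNA. DT genes are the upstream RNAs that are stable, spliced or long enough to have been annotated. Poly(A) selection measures their polyadenylated form alone. SFPQ and NONO are related RNA-binding proteins that bind nascent RNA and help build paraspeckles, nuclear bodies assembled on the long noncoding RNA NEAT1.

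Total counts ran from 4243196 to 14886353 per library, the lowest being siSFPQ-2 replicate 2, and between 313 and 402 of the DT genes had a read in a library. SFPQ RNA had a log2 fold change of -2.51 with the SFPQ siRNAs and NONO RNA of -2.52 with the NONO siRNAs. NEAT1 RNA had a log2 fold change of -0.26 (adjusted p = 1) with the NEAT1 ASOs in the main edgeR fit, which carried no replicate block. The ASO libraries are therefore named below by their labels, and a loss of polyadenylated NEAT1 RNA was not detected in them. Poly(A) selection does not measure NEAT1 RNA without a poly(A) tail. Of the markers of small cell lung cancer, siCtrl cells held YAP1 at 406 CPM (reads scaled to library size with TMM factors), SYP at 17.2 and NEUROD1 at 4.61, whereas INSM1, NCAM1 and EPCAM were at 0. Of markers of other cell types, DCN and LUM of fibroblasts and PTPRC of leukocytes were at 0 in siCtrl, while the fibroblast marker COL1A1 stood at 13.5 CPM and TP63 of squamous cells at 70.4. TP63 averaged 10.0 CPM with siSFPQ-2 and 3.01 with siSFPQ-3, and its part in the results for SFPQ was not tested. In bulk RNA, fewer cells that make a transcript and less transcript per cell cannot be told apart.

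Of the 437 DT genes, 436 could be set beside the coding gene in their symbol. UHRF1BP1L-DT, with 11 reads, had no gene of that symbol in the files. All 436 pairs lay on opposite strands, and in 391 the annotated starts were at most 1000 bases apart. Counting overlaps as negative, the median distance between the starts was 109 bases, with quartiles of 23.75 and 229.75 bases. In 100 pairs the DT gene started inside the coding gene, so that the 5′ ends overlapped head to head. DT genes spanned 325 to 509582 bases with a median of 7782, against a median of 39003 for their coding genes. Exons of 158 DT genes overlapped an exon of another gene, which was the paired coding gene in 85 cases. The strand setting of the counting is not given in the sources used here, and 250 of 833 genes whose exons lay wholly inside exons of the opposite strand still had 10 or more reads. Reads of overlapping DT genes may therefore belong in part to the neighbour, and the overlap is named below for each such gene.

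The promoters of 6 pairs on which the results below turn are shown here, since the distance between the starts and the base composition of the shared promoter can be read directly from them. SUCLG2 and SUCLG2-DT both fell after SFPQ knockdown, ZC3H12A and FZD4 were higher together with their divergent partners, MAD2L1 went the other way from its own, TMCC1-DT fell after knockdown of either protein, and PPP1CB-DT rose after SFPQ and fell after NONO knockdown. Each run is the RefSeq window of the coding gene (GRCh38.p14), 250 bases before to 50 after its start, written 5′ to 3′ on the coding strand. Capitals mark the bases from the start of the DT gene to that of the coding gene as annotated in the deposited files. The DT start is the first capital except in PPP1CB, where the coding start comes first. The RefSeq start is the deposited coding start in 4 windows, lies 10 bases from it in MAD2L1 and 190 bases downstream of it in PPP1CB. The start of PPP1CB-DT thus lies inside PPP1CB by the deposited start and 108 bases upstream of it by the RefSeq start. The windows are chr3:67654563-67654862 on the minus strand for SUCLG2, chr1:37474330-37474629 on the plus strand for ZC3H12A, chr11:86955346-86955645 on the minus strand for FZD4, chr4:120066799-120067098 on the minus strand for MAD2L1, chr3:129893662-129893961 on the minus strand for TMCC1 and chr2:28751580-28751879 on the plus strand for PPP1CB.
SUCLG2: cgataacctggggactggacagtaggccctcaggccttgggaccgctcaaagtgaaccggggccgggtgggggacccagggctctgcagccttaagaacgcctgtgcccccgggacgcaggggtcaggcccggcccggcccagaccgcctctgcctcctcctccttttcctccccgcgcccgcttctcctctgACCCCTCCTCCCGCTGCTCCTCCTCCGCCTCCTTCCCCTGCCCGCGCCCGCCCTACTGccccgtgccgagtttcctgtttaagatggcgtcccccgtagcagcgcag
ZC3H12A: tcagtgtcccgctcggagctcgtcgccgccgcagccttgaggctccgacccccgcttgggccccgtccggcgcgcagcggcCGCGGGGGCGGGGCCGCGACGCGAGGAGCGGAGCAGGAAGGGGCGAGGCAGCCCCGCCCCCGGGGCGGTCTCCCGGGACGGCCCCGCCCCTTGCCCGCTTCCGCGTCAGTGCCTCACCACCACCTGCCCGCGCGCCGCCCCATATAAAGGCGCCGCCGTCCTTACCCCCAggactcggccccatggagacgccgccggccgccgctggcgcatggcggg
FZD4: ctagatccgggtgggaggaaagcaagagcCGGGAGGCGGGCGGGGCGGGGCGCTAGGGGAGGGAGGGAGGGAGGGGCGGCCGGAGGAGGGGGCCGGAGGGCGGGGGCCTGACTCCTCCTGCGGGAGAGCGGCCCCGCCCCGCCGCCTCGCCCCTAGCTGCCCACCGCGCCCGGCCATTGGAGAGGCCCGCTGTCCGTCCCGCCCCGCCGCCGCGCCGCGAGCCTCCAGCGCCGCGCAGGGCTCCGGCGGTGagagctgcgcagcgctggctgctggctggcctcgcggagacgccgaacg
MAD2L1: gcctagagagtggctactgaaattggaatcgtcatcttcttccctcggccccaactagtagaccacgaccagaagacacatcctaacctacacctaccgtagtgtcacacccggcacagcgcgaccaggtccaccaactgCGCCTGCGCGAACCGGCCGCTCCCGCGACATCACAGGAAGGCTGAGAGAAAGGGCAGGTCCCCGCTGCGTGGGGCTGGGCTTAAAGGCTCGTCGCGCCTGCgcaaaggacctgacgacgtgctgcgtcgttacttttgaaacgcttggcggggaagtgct
TMCC1: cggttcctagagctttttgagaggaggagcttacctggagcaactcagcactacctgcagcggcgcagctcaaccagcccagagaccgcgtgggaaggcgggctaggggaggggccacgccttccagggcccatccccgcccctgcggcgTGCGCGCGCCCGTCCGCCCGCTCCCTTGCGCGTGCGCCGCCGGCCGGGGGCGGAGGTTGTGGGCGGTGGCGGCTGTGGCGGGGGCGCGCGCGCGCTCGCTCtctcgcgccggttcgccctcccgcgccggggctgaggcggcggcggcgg
PPP1CB: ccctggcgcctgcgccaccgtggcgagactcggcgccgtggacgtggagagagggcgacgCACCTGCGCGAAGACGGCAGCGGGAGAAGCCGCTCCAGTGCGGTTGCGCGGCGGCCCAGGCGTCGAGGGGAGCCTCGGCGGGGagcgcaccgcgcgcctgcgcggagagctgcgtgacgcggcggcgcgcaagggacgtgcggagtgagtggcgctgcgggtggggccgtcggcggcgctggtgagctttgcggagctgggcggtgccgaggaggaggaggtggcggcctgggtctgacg

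The starts lay 57 bases apart in SUCLG2, 169 in ZC3H12A, 221 in FZD4, 100 each in MAD2L1 and TMCC1, and 82 in PPP1CB. G and C made up 70.0% of the SUCLG2 window, 79.0% of ZC3H12A, 79.7% of FZD4, 60.3% of MAD2L1, 76.3% of TMCC1 and 76.7% of PPP1CB. Across RefSeq windows of DT members, of which 361 windows of 332 genes matched by symbol, the median G and C content was 68.7%, against 58.7% over all 35116 windows. The GC box letters GGGCGG stood on either strand of 74.0% of the DT windows and 45.0% of all windows. TATAAA, the core of the TATA box, stood in 4.2% of the DT windows and 11.5% of all windows, and CCAAT in 30.2% against 34.6%. Of the 6 windows shown, TATAAA was found in ZC3H12A only, and CCAAT in FZD4 and MAD2L1 only. GGGCGG stood in 69.8% of the 43 windows of DT genes that rose after SFPQ knockdown and 77.3% of the 66 windows of those that fell. All 3 motifs were searched on both strands, and none contains another.

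DT genes took up little of the RNA. Together they held 371721 of 250394901 reads, and TMEM161B-DT alone had 149607 of them, or 40.2%. The 10 most abundant members held 57.9%. TMEM161B-DT lies on chromosome 5 from 88268891 to 88439337, starts 585 bases inside TMEM161B, and shares 4.4% of its exonic bases with genes of the opposite strand. Its level was 358, 395 and 427 CPM with siSFPQ-2, 279, 334 and 278 in siSFPQ-3, 609, 573 and 660.1 in siNONO-3, 616, 704 and 845 in siNONO-4 and 589, 575 and 824 in siCtrl. In the ASO arm it was 601, 577 and 702 CPM with ASO-NEAT1-1047, 670.2, 597 and 771 in ASO-NEAT1-1473 and 574, 550.5 and 738 in ASO-Ctrl. All 6 siSFPQ libraries lay below every other library, while the NONO and NEAT1 groups overlapped their controls.

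DT genes took 0.134% ± 0.0103 of the counts with siSFPQ-2 (SD, n = 3), 0.115% ± 0.0099 with siSFPQ-3, 0.144% ± 0.0049 with siNONO-3, 0.152% ± 0.0117 with siNONO-4 and 0.155% ± 0.0239 in siCtrl. The share was 0.158% ± 0.0162 in ASO-NEAT1-1047, 0.162% ± 0.0142 in ASO-NEAT1-1473 and 0.153% ± 0.0182 in ASO-Ctrl. Without TMEM161B-DT the shares were 0.0953% and 0.0866% with the SFPQ siRNAs, 0.0818% and 0.0793% with the NONO siRNAs and 0.0885% in siCtrl. Without that member the SFPQ groups thus lay within 1 SD of siCtrl, which was 0.0087%. The library with the highest share was replicate 3 in 7 of the 8 groups.

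**Figure D1:**
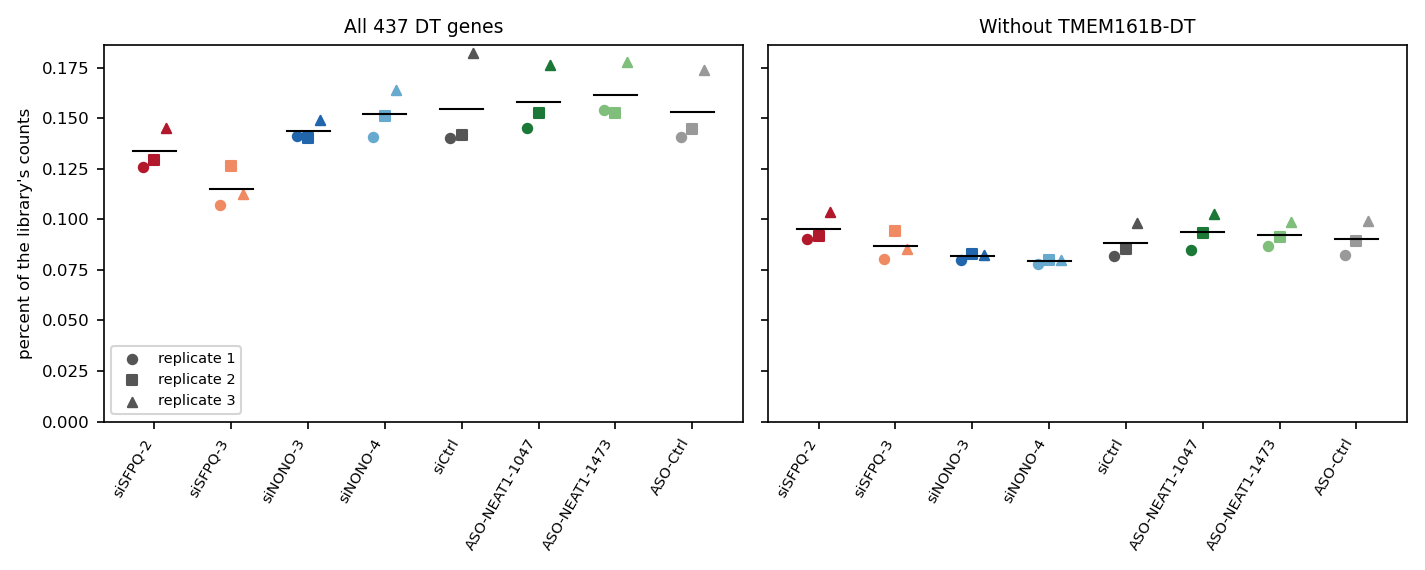
Percent of each library's counts that fell in DT genes (y axis) for the 8 groups of 3 libraries (x axis), for all 437 members on the left and without TMEM161B-DT on the right; symbols are libraries by replicate number and bars are group means. The siSFPQ groups average 0.134% and 0.115% on the left, below the 0.155% of siCtrl, and 0.0953% and 0.0866% on the right, beside 0.0885% in siCtrl.

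Of the 437 DT genes, 213 passed the expression filter and were tested, and 224 were not, with 10 to 174 reads each and a median of 43.5. The tested DT genes had a median level of 2.11 CPM, and 16 exceeded 10 CPM. Per kb of exon, tested DT genes had a median of 0.74 CPM, against 9.40 CPM per kb for their coding genes, and the median DT gene stood at 9.64% of its coding gene, with quartiles of 3.1% and 29.5%. In 11 pairs the DT gene was the higher one per kb of exon. RAB30-DT reached 5.91 CPM per kb beside 0.778 for RAB30, a small GTPase of the Golgi, and BAIAP2-DT 2.59 beside 1.05 for BAIAP2, an adaptor that acts on the actin cytoskeleton. TMEM161B-DT had 16.4 CPM per kb and TMEM161B 13.1. PKD2L2-DT, CHKB-DT, C2orf74-DT, TNFRSF10A-DT, CABP1-DT, ZDHHC12-DT, TBC1D22A-DT and CAPN10-DT were the other members of this kind.

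Knockdown of SFPQ changed DT genes in both directions. The share that fell was near that of all genes, and the share that rose was smaller than that of all genes. Of the 213 tested, 53 rose and 76 fell, which is 24.9% and 35.7%, at an adjusted p under 0.05 by edgeR's quasi-likelihood test. Over all 15869 genes tested 34.7% rose and 35.8% fell, 70.4% in all, beside 60.6% of DT genes. Changes are log2 fold changes of 6 knockdown libraries over 3 controls, and p-values are edgeR's, adjusted over all genes tested. Changes of at least 2-fold made up 33 of the rises and 49 of the falls among the 213 DT genes. Among all 15869 genes they made up 2806 of the rises and 2364 of the falls. The median log2 fold change was -0.24 over DT genes and -0.018 over all genes. Their coding genes were near the background in both directions, with 155 higher and 167 lower of 420 tested. With siSFPQ-2 alone 53 DT genes rose and 53 fell, against 32.4% of all genes each way (64.9% in all), and with siSFPQ-3 alone 44 rose and 72 fell, against 33.7% and 33.3% (67% in all).

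The expression filter bears on these counts. Of the 53 rises, 14 were among the 19 DT genes that reached the filter level in fewer than 3 libraries outside the knockdown. These 19 could be tested only through knockdown libraries in which they reached that level, which favours rises. The other 5 of them were not called. Without these 19, 39 of 194 rose (20.1%) and 76 fell (39.2%), and the matching shares over all genes were not computed. Among the 19 are DUSP5-DT, DNAJB5-DT, ZC3H12A-DT, FZD4-DT, ITGB1-DT, MAD2L1-DT and TSPAN5-DT, which reached the level in 0 of the 18 libraries outside the SFPQ siRNAs. Their values are given below as a description, without a test. Of the 76 falls, 29 were among the 56 DT genes that reached the filter level in fewer than 3 knockdown libraries. Of these 56, 2 rose and 25 were not called. No count was made without these 56, so the shares of 20.1% and 39.2% allow for the filter in the rises alone.

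The largest increases were of DT genes almost silent in control cells. DUSP5-DT, upstream of the gene for a nuclear phosphatase of ERK kinases, had 2.04, 3.71 and 4.81 CPM with siSFPQ-2 and 1.91, 3.06 and 2.88 CPM with siSFPQ-3, against 0, 0.102 and 0.0727 CPM in siCtrl. These were 142 reads in the 6 siSFPQ libraries and 2 in siCtrl, a ratio of 53.3 per unit of depth. Its 95% interval of 14.5 to 444 covers counting error only, not the spread between libraries. The interval is no test, since DUSP5-DT was chosen as a large rise and reached the filter level only with the SFPQ siRNAs. DUSP5 itself rose by 2.84 (SE 0.14, adjusted p = 7.07e-16), at 38.8, 35.4 and 48.8 CPM with siSFPQ-2 and 41.2, 42.6 and 54.1 CPM with siSFPQ-3 against 7.23, 5.72 and 5.31 CPM in siCtrl. Both members of the pair were thus higher in each of the 6 knockdown libraries than in any control.

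DNAJB5-DT, upstream of the gene for an HSP40 cochaperone, had 0.5104, 1.24 and 0.733 CPM with siSFPQ-2 and 1.19, 1.23 and 1.08 CPM with siSFPQ-3 and no read in siCtrl. With 45 reads against 0, it was at least 11.3-fold higher after SFPQ knockdown, taking a floor of 3 counts over the siCtrl group. DNAJB5 did not follow, with a log2 fold change of -0.031 (adjusted p = 0.862). ZC3H12A-DT, whose partner encodes an endonuclease that degrades inflammatory mRNAs, had 2.42, 1.49 and 1.05 CPM with siSFPQ-2 and 1.79, 2.57 and 1.08 CPM with siSFPQ-3 against 0.178, 0.102 and 0 CPM in siCtrl. The ratio of 80 reads to 3 was 20 per unit of depth (95% counting interval 6.6 to 99.1), and ZC3H12A rose by 1.72 (SE 0.22, adjusted p = 1.24e-07) beside it. For ZC3H12A-DT too the interval covers counting error only and is no test, for the same reason.

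HIVEP2-DT rose by 3.35 (SE 0.35, adjusted p = 2.26e-09) beside HIVEP2, a zinc finger transcription factor that rose by 1.04. HIVEP2-DT stood at 4.08, 6.68 and 9.42 CPM with siSFPQ-2 and 5.24, 7.22 and 7.93 CPM with siSFPQ-3, against 0.803, 0.408 and 0.727 CPM in siCtrl, and it starts 10292 bases inside HIVEP2, with 7.8% of its exonic bases overlapping exons of that gene. TMEM30A-DT, paired with a subunit of phospholipid flippases, had 9.697, 9.898 and 7.01 CPM with siSFPQ-2 and 12.3, 11.5 and 8.53 CPM with siSFPQ-3 against 1.34, 1.33 and 2.33 CPM in siCtrl, without overlap between the groups, and rose by 2.50 (SE 0.31, adjusted p = 4.6e-08). Exons of FILIP1 cover 33.9% of its exonic bases. FZD4-DT, paired with a receptor of Wnt and Norrin, had a fitted log2 fold change of 2.50, at 2.42, 0.9898 and 0.942 CPM with siSFPQ-2 and 0.953, 2.57 and 1.202 CPM with siSFPQ-3 against 0.446, 0.204 and 0.145 CPM in siCtrl. ITGB1-DT had a fitted log2 fold change of 2.22 beside ITGB1, the integrin beta-1 chain, at 1.46, and it starts 47355 bases inside ITGB1, with 11.0% of its exonic bases overlapping exons of that gene. In all 4 of these pairs the coding gene rose too, by 1.19 for TMEM30A and 1.17 for FZD4. The DT genes were chosen as the largest rises, so their larger change within the pair follows in part from that choice.

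DPH6-DT had the largest fall. It stood at 1.53, 0.742 and 2.302 CPM with siSFPQ-2 and 2.5, 0.9797 and 1.08 CPM with siSFPQ-3, against 12.5, 12.8 and 13.96 CPM in siCtrl. It changed by -3.01 (SE 0.21, adjusted p = 1.14e-12), and every knockdown library lay far below every control. DPH6, which completes the diphthamide modification of elongation factor 2, had a change of -1.88 (SE 0.08, adjusted p = 6.12e-18). SUCLG2-DT and SUCLG2, the GTP-specific subunit of succinyl-CoA ligase, span 293045 and 294153 bases and start 57 bases apart. SUCLG2-DT had 1.15, 3.71 and 1.05 CPM with siSFPQ-2 and 0.953, 0.735 and 0.601 CPM with siSFPQ-3 against 8.56, 7.56 and 7.71 CPM in siCtrl, and SUCLG2 had 8.04, 7.42 and 5.13 CPM with siSFPQ-2 and 5.95, 6.74 and 5.05 CPM with siSFPQ-3 against 105, 98.4 and 77.9 CPM in siCtrl. The log2 fold changes were -2.81 (SE 0.26, adjusted p = 1.91e-10) and -3.89 (SE 0.14, adjusted p = 5.86e-18), with no overlap between the groups in either gene.

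INSIG1-DT and KCTD13-DT fell while their coding genes rose. INSIG1-DT spans 1624 bases on chromosome 7 from 155295918 to 155297541 and had 0.383, 0.247 and 0.105 CPM with siSFPQ-2 and 0.238, 0.122 and 0.721 CPM with siSFPQ-3 against 1.87, 2.55 and 2.33 CPM in siCtrl, a change of -2.90 (SE 0.44, adjusted p = 1.48e-06). INSIG1, the membrane protein that holds back sterol-regulated transcription factors, had 106, 106 and 111 CPM with siSFPQ-2 and 114, 120.5 and 126 CPM with siSFPQ-3 against 72.5, 64.3 and 59.6 CPM in siCtrl, a change of 0.80 (SE 0.09, adjusted p = 8.56e-09). KCTD13-DT had 0.5104, 0.742 and 0.209 CPM with siSFPQ-2 and 0.357, 0.245 and 0.841 CPM with siSFPQ-3 against 2.77, 3.88 and 3.49 CPM in siCtrl, a change of -2.86 (adjusted p = 2.92e-08), while KCTD13, an adaptor of a cullin-3 ubiquitin ligase, rose by 0.83 (adjusted p = 4.66e-06). Neither DT gene overlaps an exon of another gene, and in all 4 genes the knockdown and control libraries did not overlap.

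The other large falls were of ZDHHC12-DT (-2.97, adjusted p = 1.5e-07), S1PR1-DT (-2.71, adjusted p = 1.59e-05), ZRANB2-DT (-2.30, adjusted p = 0.00105) and SAP30-DT (-2.16, adjusted p = 5.18e-09). ZDHHC12, a palmitoyltransferase, S1PR1, the sphingosine 1-phosphate receptor, and SAP30, a subunit of the SIN3 histone deacetylase complex, fell as well, with changes of -1.28, -0.97 and -0.78. The call for S1PR1 was lost without siCtrl replicate 1, at an adjusted p of 0.0565. ZRANB2, a splicing factor, had a log2 fold change of 0.07 (adjusted p = 0.386) and was not called. ZRANB2-DT overlaps exons of NEGR1, and SAP30-DT those of SAP30.

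Among the 10 most abundant DT genes, RIPK2-DT and RAB30-DT rose most after SFPQ knockdown. RIPK2-DT stood at 69.7, 70.5 and 60.8 CPM with siSFPQ-2 and 51.5, 65.03 and 54.4 CPM with siSFPQ-3 against 27.8, 28.1 and 32.6 CPM in siCtrl, a change of 1.06 (adjusted p = 2.76e-10), and RIPK2, the kinase downstream of NOD receptors, rose by 1.86. RAB30-DT stood at 59.1, 59.1 and 72.8 CPM with siSFPQ-2 and 57.03, 72.5 and 68.4 CPM with siSFPQ-3 against 31.2, 36.4 and 37.01 CPM in siCtrl and rose by 0.90 (adjusted p = 6.03e-08), with RAB30 at 1.65. TMEM161B-DT (-0.95), PCMTD1-DT (-0.97), CTBP1-DT (-0.71) and COX10-DT (-0.52) fell, with adjusted p-values of 3.64e-07, 4.74e-09, 2.24e-05 and 0.000853. NIPBL-DT, DPH5-DT and SLC12A2-DT rose by 0.32, 0.34 and 0.30, and GARS1-DT was not called (0.089, adjusted p = 0.498). The partners of these genes include NIPBL, the loader of cohesin, SLC12A2, a sodium, potassium and chloride cotransporter, CTBP1, a transcriptional corepressor, and COX10, an enzyme of heme A synthesis. The call for NIPBL-DT was lost without siCtrl replicate 1 (adjusted p = 0.0912). That for SLC12A2-DT was lost without siCtrl replicate 1 or 2, siSFPQ-2 replicate 1 or siSFPQ-3 replicate 2, with adjusted p-values up to 0.145.

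**Figure D2:**
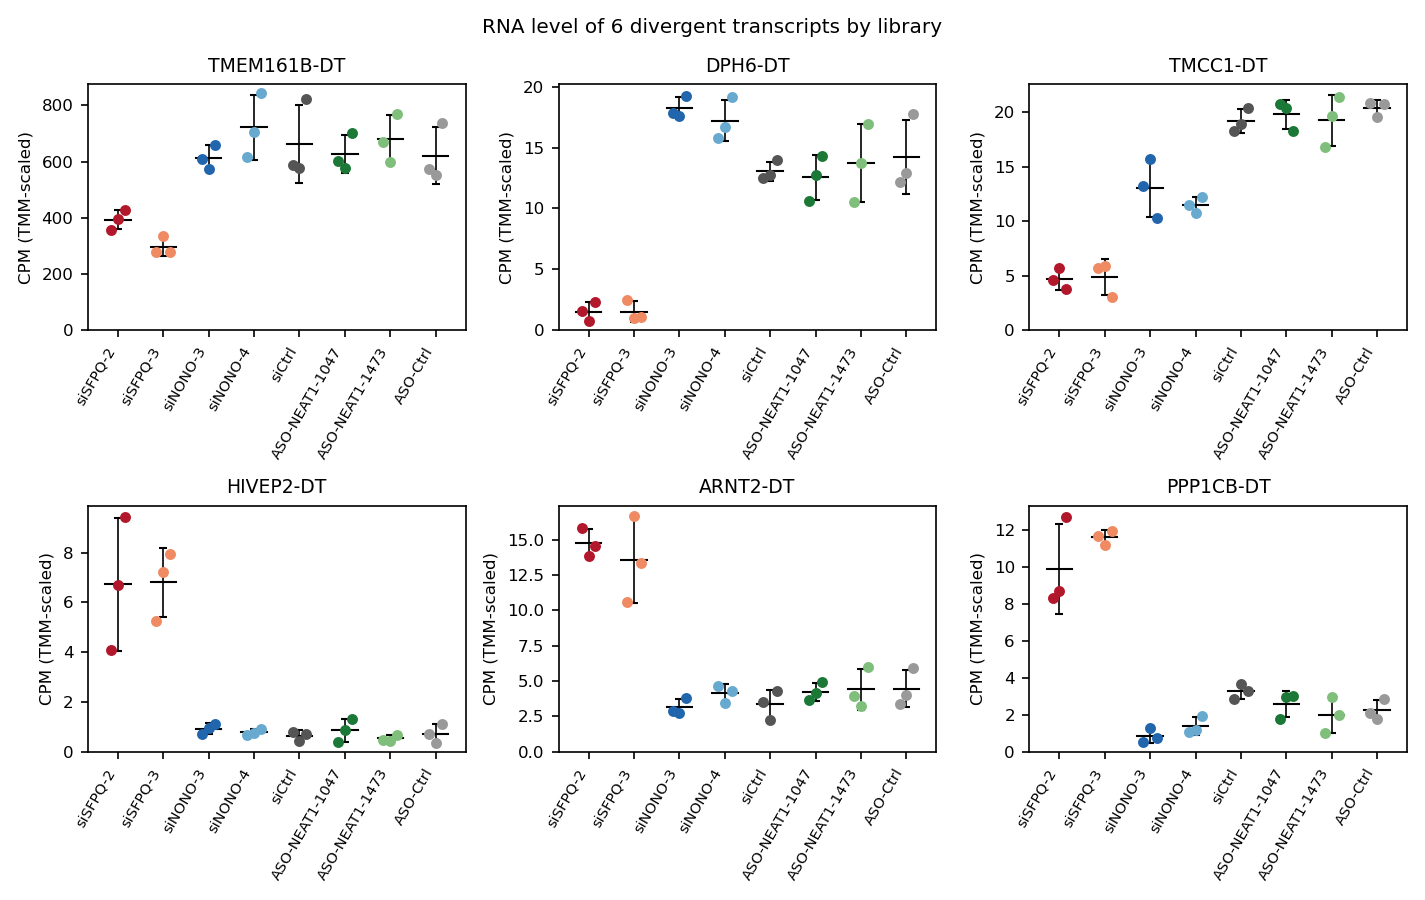
TMM-scaled CPM (y axes, linear from 0) of 6 DT genes in each of the 24 libraries by group (x axes); points are libraries, horizontal lines group means and bars SD (n = 3). DPH6-DT and TMCC1-DT are low in all 6 siSFPQ libraries, HIVEP2-DT and ARNT2-DT are high in them, and PPP1CB-DT is high with the SFPQ siRNAs and low with the NONO siRNAs.

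Where both were called, DT genes and the coding genes named in their symbols moved together more often than apart after SFPQ knockdown. In 210 pairs both genes were tested, and in 90 both were called. Of these 90, 66 changed in the same direction, 29 upwards and 37 downwards, and 24 in opposite directions. The opposite pairs split into 11 with the DT gene higher and the coding gene lower and 13 the other way round. The 29 upward pairs include those of DUSP5-DT, ZC3H12A-DT, FZD4-DT and ITGB1-DT, and the 11 include those of MAD2L1-DT and TSPAN5-DT. These DT genes reached the filter level only with the SFPQ siRNAs, and the pairs were not counted without them. In 37 pairs the DT gene alone was called, in 66 the coding gene alone, and in 17 neither. Across the 210 pairs the log2 fold changes had a Spearman rho of 0.355 and a Pearson r of 0.408, a description of genes that share the same libraries and, in part, reads. In single knockdown libraries set against the mean of siCtrl, rho ran from 0.255 to 0.378. Among pairs whose DT gene overlaps no exon of another gene, 121 had both genes tested and 54 both called, of which 38 moved the same way and 16 in opposite directions, and rho was 0.283. The change of the DT gene was the larger of the pair in 141 of 210 pairs, with a median absolute log2 fold change of 0.79 against 0.51 for coding genes. With the NEAT1 ASOs, where no gene was called, it was the larger in 168 of 210 pairs, with medians of 0.147 and 0.051. The larger change of DT genes was thus not particular to SFPQ knockdown.

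**Figure D3:**
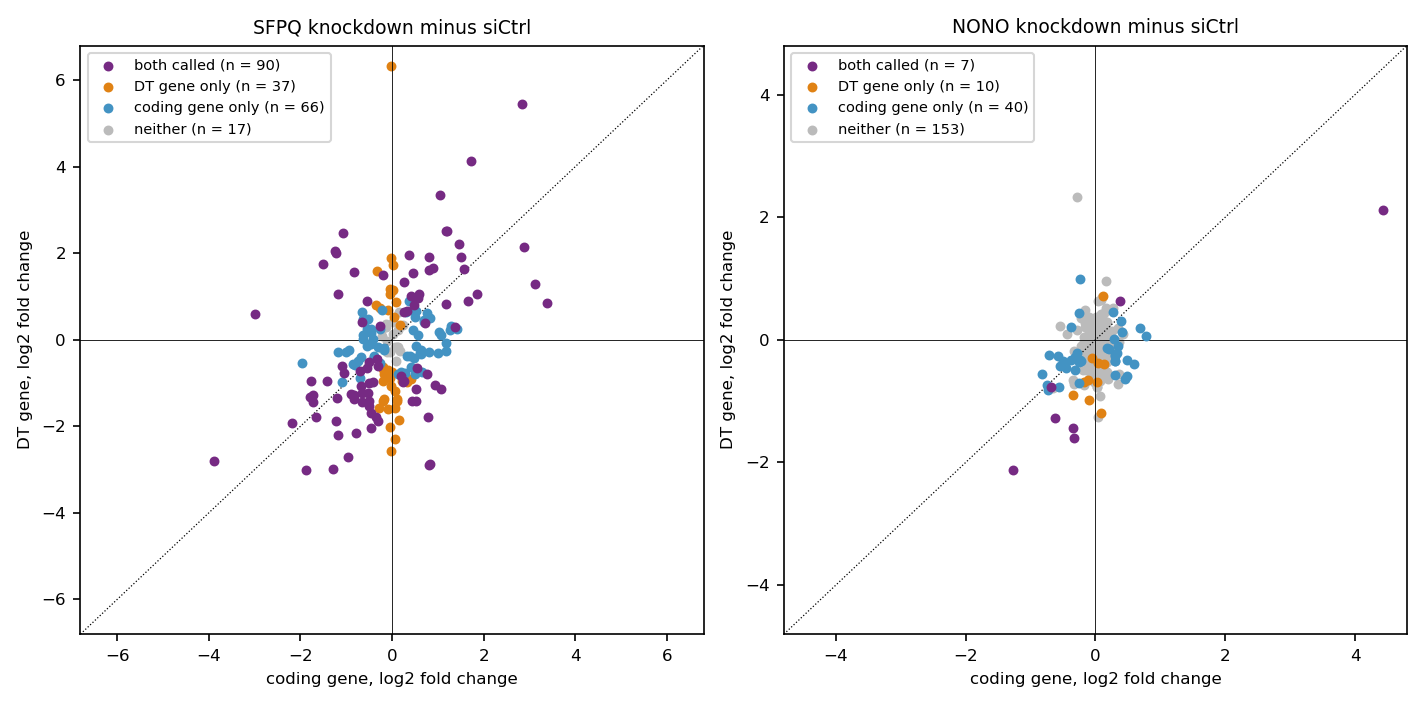
Log2 fold change of each DT gene (y axis) against that of the coding gene named in its symbol (x axis) for 210 pairs, after SFPQ knockdown on the left and NONO knockdown on the right, both against siCtrl; colours show which of the 2 genes was called and the dotted line marks equal change. On the left 90 pairs have both genes called, 66 of them in the same direction, while on the right 7 have both called and 153 neither.

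In 6 pairs both genes were called in opposite directions with at least 1 log2 unit each. In 2 of them, with MAD2L1-DT and TSPAN5-DT, the DT gene reached the filter level only with the SFPQ siRNAs. ARNT2-DT stood at 15.8, 13.9 and 14.6 CPM with siSFPQ-2 and 10.6, 16.7 and 13.3 CPM with siSFPQ-3, against 3.48, 2.25 and 4.29 CPM in siCtrl. ARNT2, a dimer partner of bHLH-PAS transcription factors, stood at 16.5, 9.898 and 8.16 CPM with siSFPQ-2 and 10.8, 14.8 and 12.02 CPM with siSFPQ-3, against 27.8, 26.04 and 31.8 CPM in siCtrl. The pair thus crossed over, with ARNT2-DT at 2.05 (SE 0.22, adjusted p = 3.36e-09) and ARNT2 at -1.25 (SE 0.17, adjusted p = 6.64e-07), and no library of one group reached the other in either gene. ARNT2-DT starts 136 bases from ARNT2 and overlaps no other exon.

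MAD2L1, which encodes a spindle checkpoint protein, had 48.9, 68.3 and 34.1 CPM with siSFPQ-2 and 125, 117 and 109.6 CPM with siSFPQ-3 against 196, 197 and 142 CPM in siCtrl, a change of -1.23 (adjusted p = 1.81e-06). MAD2L1-DT, at 0.766, 0.495 and 1.15 CPM with siSFPQ-2 and 0.714, 1.23 and 1.202 CPM with siSFPQ-3 against 0.0892, 0.306 and 0.291 CPM in siCtrl, had a fitted log2 fold change of 1.997. TSPAN5-DT had 1.28, 1.24 and 0.942 CPM with siSFPQ-2 and 0.714, 2.204 and 1.803 CPM with siSFPQ-3 against 0.178, 0.306 and 0.218 CPM in siCtrl and a fitted log2 fold change of 2.47, beside TSPAN5, a tetraspanin, at -1.07 (adjusted p = 7.41e-07). EOLA2-DT rose by 1.76 (adjusted p = 4.48e-06) and EOLA2 changed by -1.50 (adjusted p = 1.42e-08), although the exons of this pair overlap. SNRPA1-DT (1.07, adjusted p = 0.0389) and SNRPA1, a protein of the U2 snRNP (-1.18, adjusted p = 1.01e-12), also diverged, as did SP2-DT (-1.15, adjusted p = 0.0167) and the transcription factor gene SP2 (1.07, adjusted p = 1.5e-07). The libraries of knockdown and control overlapped for SNRPA1-DT and SP2-DT. The call for SNRPA1-DT was lost with DESeq2 (adjusted p = 0.0586) and without siCtrl replicate 2 or 3, siSFPQ-2 replicate 3 or siSFPQ-3 replicate 2 or 3 (adjusted p up to 0.291), and that for SP2-DT without siCtrl replicate 3 (0.108).

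**Figure D4:**
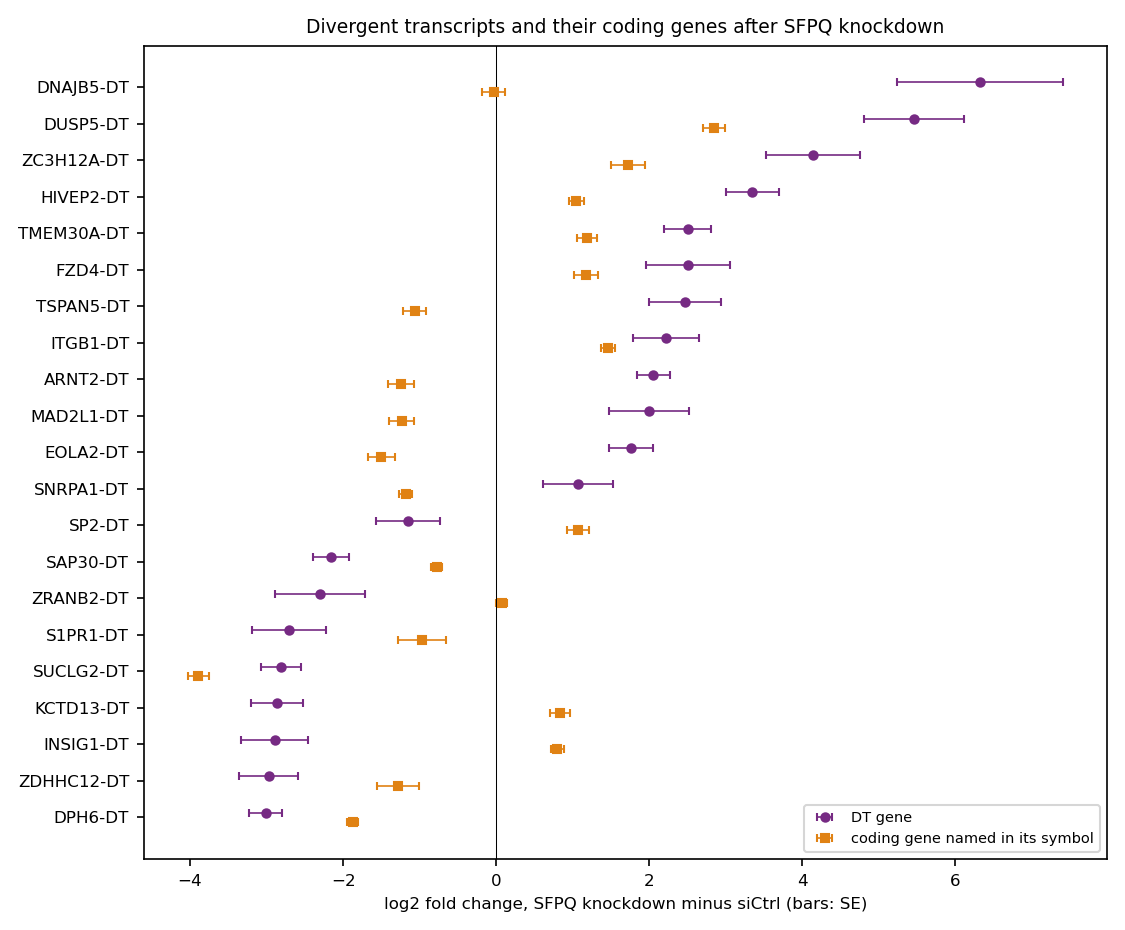
Log2 fold change after SFPQ knockdown against siCtrl (x axis) of the named DT genes with the largest rises, the largest falls and opposite pairs, each beside its coding gene; bars are SE of the fit over 24 libraries. Among the DT genes values run from DNAJB5-DT, whose fitted change rests on 0 reads in siCtrl, to DPH6-DT at -3.01, the coding gene SUCLG2 lies lower at -3.89, and the coding gene of MAD2L1-DT, ARNT2-DT, EOLA2-DT, TSPAN5-DT and SNRPA1-DT lies on the other side of 0.

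Falls after SFPQ knockdown outnumbered rises chiefly in the short DT genes. Of 79 tested DT genes spanning under 5 kb, 39 fell and 8 rose, or 49.4% and 10.1%, while 29.9% of the 2744 genes of that span in the whole fit fell and 31.2% rose. Their median log2 fold change was -0.65, against 0.028 for all genes of that span. From 5 to 30 kb, 18 of 64 rose and 18 fell, beside 30.9% and 37.5% of all genes of that span. From 30 to 100 kb 15 of 43 rose and 9 fell, beside 40.5% and 32.5%, and over 100 kb 12 of 27 rose and 10 fell, beside 35.7% and 43.8%. The coding genes paired with the short DT genes counted 23 higher and 32 lower of 78 with a median of -0.074. INSIG1-DT, KCTD13-DT and S1PR1-DT, at 1624, 2098 and 846 bases, were short members with large falls, while DPH6-DT, SUCLG2-DT and ZRANB2-DT span 314046, 293045 and 408653 bases and were long members among the largest falls. Spearman's rho between span and log2 fold change over the 213 DT genes was 0.249.

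Both SFPQ siRNAs gave more falls than rises in DT genes under 5 kb, with 8 higher and 28 lower for siSFPQ-2 and 8 higher and 38 lower for siSFPQ-3, beside 29.4% higher and 24.5% lower of all genes of that span with siSFPQ-2 and 29.4% and 27.8% with siSFPQ-3. Leaving out any library of the siSFPQ or siCtrl groups left 6 to 8 higher and 31 to 41 lower. Other noncoding genes under 5 kb counted 48 lower and 27 higher of 118 genes with antisense (AS) symbols and 23 lower and 12 higher of 53 LINC genes. Over all spans, 162 of 465 AS genes fell and 129 rose, 116 of 266 LINC genes fell and 82 rose, and 13 of 30 microRNA host genes (MIR...HG) fell and 12 rose. The limits of the span classes were chosen after the values were seen, no test of the difference between classes was run, and whether low counts of short DT genes had a part in it was not tested.

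**Figure D5:**
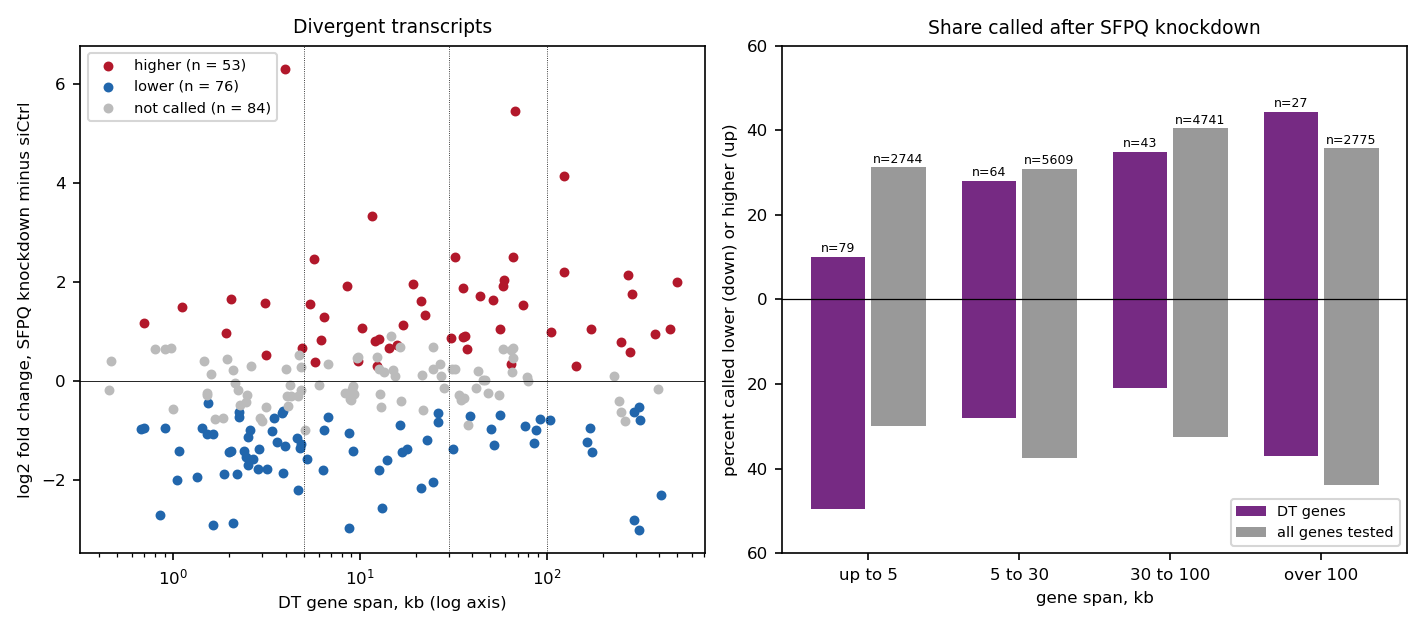
Left, log2 fold change after SFPQ knockdown (y axis) against the span of each of 213 DT genes (x axis, log scale in kb), with dotted lines at 5, 30 and 100 kb; right, percent of DT genes and of all genes tested called higher (bars up from 0) or lower (bars down) in each span class, with n above the bars. Below 5 kb 49.4% of DT genes are lower and 10.1% higher, against 29.9% and 31.2% of all genes.

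Knockdown of NONO changed 17 DT genes in the main fit, which carried no replicate block, and most of those fell. Of 213 tested, 3 rose and 14 fell, or 1.41% and 6.57%, against 7.47% and 9.96% of all genes (17.4% called in all). The median log2 fold change was -0.20 over DT genes and -0.004 over all genes, and in 135 of 210 pairs the DT gene lay below its coding gene. AS genes had a median of -0.14 and the coding genes named in the DT symbols 0.009. At an unadjusted edgeR p under 0.05 there were 44 of 213 DT genes and 4829 of all 15869 genes. With siNONO-3 alone 5 DT genes rose and 16 fell, against 9.02% and 10.9% of all genes (19.9% in all), and with siNONO-4 alone 2 rose and 12 fell, against 5.1% and 5.94% (11% in all). Fits with the replicate number as a block, which pairs the NONO libraries, called 6 DT genes higher and 25 lower, against 12% and 14.8% of all genes (26.9% in all). The 14 falls depended on single libraries, with 8 left without siCtrl replicate 3 and 9 without siNONO-3 replicate 3. The settings that left out 1 library, here and below, carried no replicate block.

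PPP1CB-DT and TMEM123-DT were among the largest falls. PPP1CB-DT, which overlaps PPP1CB at its 5′ end by the deposited annotation, stood at 0.493, 1.27 and 0.745 CPM with siNONO-3 and 1.04, 1.18 and 1.95 CPM with siNONO-4, against 2.85, 3.68 and 3.27 CPM in siCtrl. Its change was -1.60 (SE 0.29, adjusted p = 0.000287), with all 6 NONO libraries below the controls, while PPP1CB, a catalytic subunit of protein phosphatase 1, changed by -0.33 (adjusted p = 0.000639). TMEM123-DT had 0.493, 0.106 and 0.186 CPM with siNONO-3 and 0.1896, 0 and 0.205 CPM with siNONO-4 against 0.981, 0.715 and 0.873 CPM in siCtrl, a change of -2.12 (SE 0.48, adjusted p = 0.00254), and TMEM123 changed by -1.28 (adjusted p = 4.7e-06). It starts 17465 bases inside TMEM123. CNN3-DT had 2.76, 2.86 and 1.02 CPM with siNONO-3 and 2.46, 1.93 and 1.84 CPM with siNONO-4 against 5.799, 5.62 and 4.29 CPM in siCtrl and a change of -1.28 (SE 0.22, adjusted p = 0.000164). CNN3, an actin-binding calponin, had -0.63 (adjusted p = 0.026), a call lost without siCtrl replicate 1 or 2 or without replicate 3 of either NONO siRNA (adjusted p up to 0.135). In the edgeR fit with the replicate block and all libraries, CNN3 had an adjusted p of 7.28e-11. The groups did not overlap for TMEM123-DT or CNN3-DT.

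TMCC1-DT, whose partner encodes a membrane protein of the endoplasmic reticulum, had 13.2, 15.7 and 10.3 CPM with siNONO-3 and 11.5, 10.7 and 12.2 CPM with siNONO-4, against 18.3, 18.9 and 20.4 CPM in siCtrl. It changed by -0.65 (SE 0.13, adjusted p = 0.000991), while TMCC1 was not called (-0.11, adjusted p = 0.369). B4GAT1-DT, upstream of a glucuronyltransferase that acts on dystroglycan, had -1.44 (adjusted p = 0.00312) and lost the call without siCtrl replicate 3 (adjusted p = 0.102). It overlaps exons of SLC29A2, and the call for B4GAT1 itself, -0.35 (adjusted p = 0.0419), was lost in 7 of the 9 settings that left out 1 library (adjusted p up to 0.168). With the replicate block edgeR's adjusted p was 0.00088 for B4GAT1-DT and 0.0174 for B4GAT1. ZNF584-DT was the DT gene that rose with both siRNAs, at 7.79, 8.796 and 8.84 CPM with siNONO-3 and 8.44, 8.57 and 9.11 CPM with siNONO-4 against 5.62, 5.21 and 5.82 CPM in siCtrl, or 0.63 (SE 0.14, adjusted p = 0.00302). ZNF584, a zinc finger gene, had 0.37 (adjusted p = 0.0166), which missed the threshold without siCtrl replicate 2 or 3 or siNONO-3 replicate 2 (adjusted p up to 0.0854). With the replicate block edgeR's adjusted p for ZNF584 was 0.0079.

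The other 9 falls were of CHKA-DT, SEPTIN7-DT, CCDC15-DT, LHX1-DT, GSK3B-DT, USP46-DT, DPH5-DT, NIPBL-DT and PCMTD1-DT, from -1.19 for CHKA-DT to -0.29 for PCMTD1-DT. The call for PCMTD1-DT was lost in 7 of the 9 settings that left out 1 library (adjusted p up to 0.175). With the replicate block its adjusted p by edgeR was 0.0119. The other 9 falls were listed after their values were seen.

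TNFRSF10A-DT and its partner TNFRSF10A, a receptor of the death ligand TRAIL, both rose after NONO knockdown and are named here after their values were seen. TNFRSF10A-DT had 2.17, 3.39 and 2.42 CPM with siNONO-3 and 1.61, 0.428 and 1.43 CPM with siNONO-4 against 0.535, 0.102 and 0.509 CPM in siCtrl, a log2 fold change of 2.11 (adjusted p = 0.00317). It was called with siNONO-3 alone and not with siNONO-4 alone, and 1 siNONO-4 library lay within the range of the controls. TNFRSF10A had 1.18, 1.06 and 1.58 CPM with siNONO-3 and 0.474, 0.642 and 0.614 CPM with siNONO-4 against 0, 0 and 0.0727 CPM in siCtrl, so that its change rests on a control group with 1 read.

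Of the 17 DT genes called after NONO knockdown, 7 had a coding gene called in the same direction, none had one called the other way, and 10 had one that was not called. With the replicate block 11 pairs moved the same way and 4 in opposite directions. Those 4 were BAIAP2-DT (-0.33) with BAIAP2 (0.49), C2orf49-DT (-0.37) with C2orf49 (0.18), KCTD13-DT (-0.72) with KCTD13 (0.34) and, with the DT gene higher, DPH6-DT (0.44) with DPH6 (-0.25). Across the 210 pairs rho was 0.258 and r was 0.429. The coding gene was called and the DT gene was not in 40 pairs.

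No DT gene passed the threshold with the oligonucleotides labelled as NEAT1 ASOs. Of 213, none was called by edgeR, as was none of all 15869 genes, and 0% were called with either ASO alone. This fit carried no replicate block, although the NEAT1 libraries are taken as paired by replicate number, so changes within pairs may have been missed. At an unadjusted edgeR p under 0.05 there were 5 DT genes and 353 of all genes, and DESeq2 called none, with 2 DT genes under an unadjusted 0.05. EOLA2-DT had the smallest p among DT genes, at 1.599, 2.88 and 2.07 CPM with ASO-NEAT1-1047 and 2.77, 2.06 and 2.67 CPM with ASO-NEAT1-1473, against 0.781, 1.48 and 1.22 CPM with ASO-Ctrl, and was chosen here after its values were seen. Its log2 fold change was 0.99 (edgeR adjusted p = 1). Every NEAT1 ASO library lay above the 3 ASO-Ctrl libraries for this gene. Between the control arms, ASO-Ctrl minus siCtrl, no DT gene was called by edgeR. Of all genes 0.12% were called higher and 0.334% lower, 0.454% in all. At an unadjusted edgeR p under 0.05 there were 11 of 213 DT genes and 1266 of all 15869 genes.

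SFPQ and NONO knockdown were also compared directly, which takes the shared siCtrl libraries out of the contrast. Of 213 DT genes, 71 were higher and 62 lower with the SFPQ siRNAs than with the NONO siRNAs, against 37% and 38.4% of all genes (75.4% in all). The largest differences were positive for DUSP5-DT (5.02), ZC3H12A-DT (3.62) and DNAJB5-DT, all 3 without a test for the reason given above, and negative for DPH6-DT (-3.45, adjusted p = 2.1e-15), NUDT19-DT (-2.56, adjusted p = 0.000978) and AKAP1-DT (-2.50, adjusted p = 0.00195). DNAJB5-DT had 45 reads with the SFPQ siRNAs and 3 with the NONO siRNAs. NUDT19-DT, at 0, 0 and 0.105 CPM with siSFPQ-2 and 0.238, 0.245 and 0.2404 CPM with siSFPQ-3, ranged from 0 to 1.25 CPM within siCtrl, and its fall against siCtrl (-2.20, adjusted p = 0.0122) was lost without siCtrl replicate 1 (adjusted p = 0.381).

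By their calls against siCtrl, 2 of the 213 DT genes (0.939%) rose after both knockdowns, 5 (2.35%) fell after both and 4 (1.88%) rose after SFPQ and fell after NONO knockdown, and both comparisons use the same control libraries. Of all genes, 3.54% rose after both, 4.63% fell after both and 3.26% rose after SFPQ and fell after NONO knockdown. None of the DT genes fell after SFPQ and rose after NONO knockdown, against 1.97% of all genes, but with the replicate block for NONO 1 did, DPH6-DT, at an adjusted p of 0.00781 in NONO. The 4 were PPP1CB-DT, LHX1-DT, DPH5-DT and NIPBL-DT, whose NONO libraries overlapped siCtrl for NIPBL-DT only. Their SFPQ libraries overlapped siCtrl for DPH5-DT and NIPBL-DT. With single siRNAs, PPP1CB-DT kept the calls with all 4. LHX1-DT was not called with siNONO-3 (-0.63, adjusted p = 0.0967), DPH5-DT not with siSFPQ-3 (0.059, adjusted p = 0.666) and NIPBL-DT not with siSFPQ-2 (0.20, adjusted p = 0.166) or siNONO-3 (-0.22, adjusted p = 0.218). The call of NIPBL-DT after NONO knockdown was lost without siCtrl replicate 2 (adjusted p = 0.0767). In the edgeR fit with the replicate block and all libraries, NIPBL-DT had an adjusted p of 0.000198 after NONO knockdown. PPP1CB-DT stood at 8.29, 8.66 and 12.7 CPM with siSFPQ-2 and 11.7, 11.1 and 11.9 CPM with siSFPQ-3, beside the NONO and siCtrl values above. LHX1-DT, upstream of a LIM homeobox transcription factor gene, stood at 7.53, 8.66 and 5.86 CPM with siSFPQ-2 and 9.05, 8.21 and 7.33 CPM with siSFPQ-3 and 2.27, 1.59 and 1.21 CPM with siNONO-3 and 1.14, 1.499 and 1.54 CPM with siNONO-4. It had 2.68, 2.55 and 2.62 CPM in siCtrl, between the other groups. LHX1 changed with it, by 0.47 (adjusted p = 0.00216) after SFPQ and -0.68 (adjusted p = 0.000524) after NONO knockdown. TMCC1-DT fell after both, further after SFPQ knockdown (-2.03, SE 0.15, adjusted p = 2.33e-12), and the difference was -1.38 (adjusted p = 6.04e-10).

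The reagents of a target were also compared with each other. Between siSFPQ-2 and siSFPQ-3, 9 DT genes were higher and 3 lower with siSFPQ-2, against 6.06% and 8.61% of all genes (14.7% in all), and the 9 became 3 without siSFPQ-2 replicate 3 and 5 without siSFPQ-3 replicate 3. EIF2AK3-DT (1.42, adjusted p = 0.003) and OSER1-DT (1.27, adjusted p = 0.0202) were higher with siSFPQ-2, and ITGB1-DT (-1.70) and UBL7-DT (-0.99, adjusted p = 0.0124) were lower with it. EIF2AK3-DT, upstream of the gene for the stress kinase PERK, had 2.68, 2.47 and 2.62 CPM with siSFPQ-2, 0.595, 1.23 and 1.08 with siSFPQ-3 and 2.23, 2.04 and 1.67 in siCtrl, so that siSFPQ-3 alone stood apart. Between siNONO-3 and siNONO-4, 3 DT genes were higher and 4 lower with siNONO-3, against 4.71% and 5.31% of all genes (10% in all), and the 3 became 1 without siNONO-3 replicate 3. With the replicate block 8 were higher and 7 lower, against 8.38% and 8.84% of all genes. ZDHHC12-DT was higher with siNONO-3 (1.33, adjusted p = 0.0167), and FMNL1-DT (-3.41, adjusted p = 0.000207) and AHI1-DT (-1.13, adjusted p = 0.00591) were lower. The NEAT1 ASOs differed on no DT gene by edgeR. At an unadjusted edgeR p under 0.05 there were 8 of 213 DT genes and 505 of all 15869 genes. DESeq2 gave 3 DT genes at that unadjusted level.

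The RNA of factors that end or degrade upstream transcripts was read from a list of 54 genes that includes the nuclear exosome and its adaptors, the cleavage and polyadenylation machinery, the U1 snRNP and Integrator. After SFPQ knockdown 27 of them fell and 10 rose, against 35.8% and 34.7% of all genes. MPHOSPH6, a cofactor of the nuclear exosome, changed by -1.30 (adjusted p = 1.41e-12), CPSF1, the largest subunit of the cleavage and polyadenylation specificity factor, by -1.17 (adjusted p = 1.28e-11) and INTS9 of Integrator by -1.12 (adjusted p = 7.21e-10). ZCCHC8 of the nuclear exosome targeting complex rose by 0.81 (adjusted p = 5.48e-09), the exonuclease XRN2 by 0.83 (adjusted p = 1.17e-12) and PPP1R10, which anchors a phosphatase at the site of termination, by 1.06 (adjusted p = 8.51e-06). After NONO knockdown 2 of the 54 rose, the U1 snRNP protein SNRPC (0.29, adjusted p = 0.0428) and the exosome subunit EXOSC7 (0.34, adjusted p = 0.0235), and WDR82 fell (-0.28, adjusted p = 0.00334). Over all genes 7.47% rose and 9.96% fell. The 2 rises were reduced to between 0 and 1 in 7 of the 9 settings that left out 1 library, and WDR82 was lost without siCtrl replicate 1. These are levels of mRNA, and their part in the changes of DT genes was not tested.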

How the data were processed

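Gene counts of 24 poly(A)-selected libraries were used as deposited. The authors trimmed reads with cutadapt 4.2, aligned them with STAR 2.7.5a to hg38 and counted them with featureCounts of Subread 2.0.3, per the file headers and the submitters' processing notes. The counts are raw reads per gene, per the file headers. How strand and multiply aligned reads were handled is not given in the sources used here. Pairs were matched by symbol, and positions come from the deposited files.

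Genes passing filterByExpr by group (level 0.991 CPM) were fitted in edgeR 4.0.16 (R 4.3.3) with TMM factors and the robust quasi-likelihood test, in 1 fit over 24 libraries and 8 groups, with Benjamini-Hochberg adjustment over 15869 genes. SFPQ, NONO and NEAT1 effects are the mean of both reagents minus the control of their arm. The main comparisons carry no replicate block. Scaling, filter, DESeq2 1.42.0, a replicate block, fits by target, single reagents, exon overlap and leaving out each library were tried as alternatives. The fit was tested on simulated data.

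Replicate numbers are shared across groups in the labels. Deviations of libraries with the same number correlated at no less than 0.114 for NONO and 0.131 for NEAT1, so these are taken as paired, and at no less than 0.011 for SFPQ, which is not. The members and gene lists were chosen with earlier results of these data known. Named genes are the 10 most abundant DT genes, up to 8 rises and 8 falls per target called with both reagents and reaching 0.5 CPM in a group, opposite pairs, the 3 largest differences each way between SFPQ and NONO, up to 2 each way between reagents, and up to 3 each way of the termination list. Counts at 0 are bounded with a floor of 3 counts, and intervals are exact at 95% and cover counting error only.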

Additional observations from a re-analysis of the deposited data

Results flagged for a closer look

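Each of 4 DT genes rose after SFPQ knockdown and fell after NONO knockdown, by their calls against siCtrl. They were chosen by those opposite calls, so the direct difference between the knockdowns by edgeR restates the choice and is no separate support. PPP1CB-DT differed by 3.318 on the log2 scale (adjusted p = 2.88e-13), at 1.72 after SFPQ and -1.60 after NONO knockdown. LHX1-DT differed by 2.321 (adjusted p = 3.29e-12), at 1.55 after SFPQ and -0.77 after NONO knockdown. DPH5-DT differed by 0.733 (adjusted p = 8.77e-09), at 0.34 after SFPQ and -0.39 after NONO knockdown. NIPBL-DT differed by 0.687 (adjusted p = 7.87e-08), at 0.32 after SFPQ and -0.37 after NONO knockdown. By single siRNAs, DPH5-DT was not called with siSFPQ-3, NIPBL-DT not with siSFPQ-2 or siNONO-3, and LHX1-DT not with siNONO-3. The SFPQ libraries overlapped siCtrl for DPH5-DT and NIPBL-DT, and the NONO libraries for NIPBL-DT. The effects against siCtrl share the same 3 control libraries, which the direct difference does not use.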

How the results depend on the processing

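No result changed sign; among repeats for named genes 2600 kept their direction and side of the threshold, 52 lost the call and 30 gained it. RLE scaling gave 1 termination factor higher after NONO knockdown. Without a filter beyond 10 reads, rho across pairs was 0.302 for SFPQ and 0.13 for NONO. DESeq2, the fit over 9 libraries and siNONO-4 alone each gave 1 opposite NONO pair, and the fit over 9 libraries gave a rho of 0.416 for SFPQ. The replicate block gave 6 higher and 25 lower DT genes, 11 pairs moving the same way, 4 opposite pairs and 2 termination factors lower for NONO, 8 higher and 7 lower DT genes between the NONO siRNAs, 15 higher between the SFPQ siRNAs and 1 higher between the control arms. Only the NONO and NEAT1 numbers pair the libraries, 9 of 9 correlating best with their own number, against 7 of 9 for SFPQ. siNONO-3 alone gave 5 DT genes and 4 termination factors higher, and siNONO-4 alone 4 pairs moving the same way and 1 termination factor higher. DT genes without exon overlap gave 29 higher, 44 lower, 38 pairs moving the same way and a rho of 0.283 for SFPQ, and 1 higher and 4 pairs for NONO, from fewer genes. Pearson's r was 0.408 for SFPQ and 0.429 for NONO. Leaving out 1 library gave 44 to 56 higher and 59 to 79 lower DT genes for SFPQ, 2 to 3 higher and 8 to 16 lower for NONO, 4 to 7 NONO pairs moving the same way, 0 to 1 opposite, a NONO rho of 0.192 to 0.286, 0 to 2 termination factors higher and 0 to 1 lower after NONO knockdown, 3 to 11 DT genes higher between the SFPQ siRNAs, and 1 to 4 higher between the NONO siRNAs. The cause of these shifts was not tested. Depth limits the 224 untested DT genes, with a median of 43.5 reads over 24 libraries.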
